A study of Mus musculus with 15 samples.

Results

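The genotype difference in kidney RNA that was shared by vehicle-treated and folic acid-treated mice was examined over all 15 of the 15 libraries, 8 labelled G3 Tert-/- against 7 labelled Tert+/+. Treatment was a term in the fit, and a gene was taken as differing the same way in both treatments when the genotype term passed over all genes and each treatment on its own gave the same direction at an unadjusted p under 0.05. Of 14651 genes tested, out of 19602 in the table, 58 met this rule: 18 were higher and 40 were lower in G3. The 4 groups were Tert+/+ mice (here WT) given vehicle (n = 4), WT mice given folic acid (n = 3), generation 3 Tert-/- mice (here G3) given vehicle (n = 4) and G3 mice given folic acid (n = 4). Male and female mice of 6 to 8 weeks received 1 intraperitoneal injection of folic acid at 125 mg/kg or of the vehicle alone, 200 µl of 0.3 M NaHCO3, and all kidneys were perfused with ice-cold PBS and taken at day 14. So every animal, control or treated, had been injected 14 days earlier, and vehicle libraries stand for bicarbonate, not for untouched kidney. The sources used here do not give the strain, the part of Tert that was deleted, whether the WT mice were littermates or the hour of death, and the labels describe whole kidney tissue without a sort of cells.

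Telomerase, with Tert as its catalytic subunit, adds repeats to chromosome ends. Mice without it are bred through successive generations, over which telomeres shorten, and short telomeres are known to engage p53 and the DNA damage response. Folic acid at a high dose injures kidney tubules and is followed by repair and scarring. The question put to the data was which genes differed between the genotypes in the same direction in both treatments, and whether the programmes named in the study's title, epithelial to mesenchymal transition and fibrosis, are among them.

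Each library held 5014684 to 6609307 reads assigned to genes (median 6091019), read from transcript 3' ends. Markers of proximal tubule (Slc34a1, 5544 to 21705 normalised counts) and thick limb (Umod, 6649 to 19208) were present in every library. The labelled sex did not follow the RNA of Xist and of Ddx3y, Kdm5d, Eif2s3y and Uty on the Y chromosome. The Y share, the sum of those 4 Y genes relative to the highest library, averaged 0.00567 for G3 vehicle, 0.476 for G3 folic acid, 0.814 for WT vehicle and 0.0205 for WT folic acid. Every WT vehicle library was labelled female, though the Y share of WT vehicle 1, 3 and 4 was 0.986, 0.942 and 1. The other groups held both labels. WT vehicle 2 and G3 folic acid 4 held Xist together with Y RNA, and WT folic acid 1 had 22.97 percent of its reads in Gm42418. Sample titles fall into 3 number series that nearly repeat the groups: G3 vehicle 1 to 3 in the first, WT vehicle 1 to 3 and all WT folic acid libraries in the second, and WT vehicle 4, G3 vehicle 4 and all G3 folic acid libraries in the third. The labels do not call them batches. Replicate numbers follow the order of the samples only. G3 vehicle 3 and 4, and WT folic acid 2 and 3, were the closest pairs (mean chi-square per gene 2.88 and 3.02, against 7.22 for the next pair), and p-values measure only the spread between the libraries.

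The 58 genes changed by modest amounts and most were lower in G3. Their fold differences ran from 1.28 to 5.66 with a median of 1.64, and 45 of the 58 differed by less than 2-fold. The additive fit called 59 genes (0.403 percent of those tested), 0.28 percent of the tested genes lower and 0.123 percent higher. All 59 had the same sign in both treatments. The additive term averages the 2 treatment differences, so opposite signs cancel, and the shared sign of the called genes largely follows from the fit. The 58 that also passed in each treatment make up 0.396 percent of the tested genes, 0.123 percent higher and 0.273 percent lower. The gene called by the additive fit that was left out was Npm3, a histone chaperone (log2 -0.89, unadjusted p = 0.0730 after folic acid), and it is named after its values were seen. In tissue RNA, fewer cells of a type and less RNA per cell cannot be told apart, for these genes and for those below.

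Same-direction and opposite-direction differences were about as many over all genes. Over all tested genes 53.9 percent had the same sign in both treatments, and 324 genes (2.21 percent) had an unadjusted p under 0.05 in each treatment with the same sign, against 393 (2.68 percent) with opposite signs. Within vehicle alone 425 genes (2.9 percent) passed for genotype, within folic acid alone 337 (2.3 percent), and the difference between the 2 treatments passed for 560 genes (3.82 percent). The additive difference had an unadjusted p under 0.05 for 2721 genes, 18.6 percent of those tested, which is the share to set beside the counts in gene lists below. The stricter test on the larger of the 2 p-values called 1 gene, Myo5a (0.00683 percent). Of the 14 tested genes of a list higher in male mouse kidney 0 had the same sign in both treatments, with a median log2 difference of -3.51 after vehicle and 2.85 after folic acid, and of 4 genes of a female kidney list 0 did (3.96 and -2.11). The Y share was higher in WT than in G3 after vehicle and lower in WT than in G3 after folic acid, as given above, and its part in the opposite signs was not tested.

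**Figure D1:**
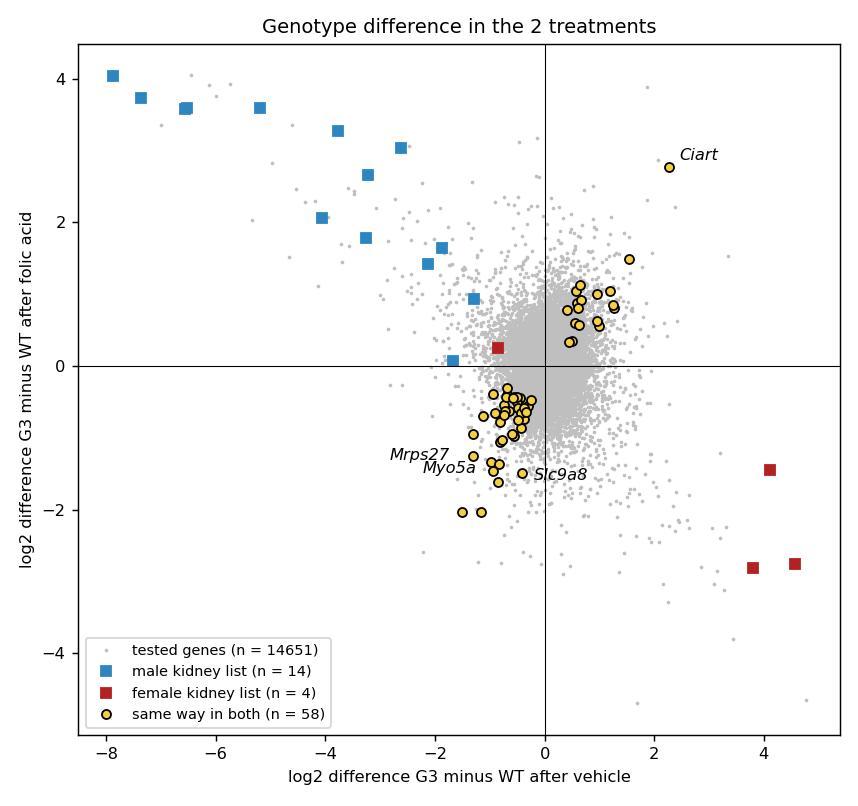
Each point is 1 tested gene, plotted by its log2 difference between G3 and WT after vehicle (x axis) and after folic acid (y axis), from 1 fit with 4 groups. The 58 genes that differed the same way (yellow circles) lie in the lower left and upper right, while male kidney genes (blue squares, n = 14) reach -7.87 after vehicle and 4.04 after folic acid, and female kidney genes (red squares, n = 4) also have opposite signs.

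The number of genes changed with the fit. The 58 were chosen on these same libraries for 1 direction, so a kept direction in refits was nearly given and is no further support. With the Y share as a further term limma called 627 genes (4.28 percent, of which 1.61 percent were higher and 2.67 percent lower), among them all 58, and 77 genes (0.526 percent) then also passed in each treatment, 32 of the 58 among them. Leaving out 1 library at a time gave between 4 genes (without WT vehicle 1) and 392 genes (without G3 vehicle 1), and 312 without WT folic acid 1, while all 58 kept their direction in each of these fits. Over all genes edgeR called 56 (0.382 percent) and DESeq2 604 (4.12 percent), 50 and 57 of the 58 among them. When the number series of the titles was added, 0 genes were called, with 561 at an unadjusted p under 0.05, and series and genotype cannot be told apart for most libraries. Within the third series, WT vehicle 4 and G3 vehicle 4 were the 2 libraries of different genotype and the same treatment, and their Y shares were 1 and 0.00578. There all 58 genes lay on the side they had in the fit, as did 68.8 percent of all tested genes, with a median log2 difference of 0.64 for the higher and -0.69 for the lower genes. These 2 libraries were also part of the fit.

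Levels in single libraries show how far the genotypes stood apart for the 58 genes, which were chosen on these values. For 27 of them all 8 G3 libraries lay on 1 side of all 7 WT libraries (59 genes, 0.403 percent, of all tested). G3 and WT did not overlap in either treatment for 34 of the 58 (108 genes, 0.737 percent, in the same direction and 111 genes, 0.758 percent, in opposite directions over all tested). They did not overlap after vehicle for 43 (11 percent of all tested genes) and after folic acid for 49 (17.3 percent). Of the 58, 54 reached the minimum of 10 counts in 3 libraries in each genotype. The other 4 passed only through the genotype where they were high, G3 for Ciart and Gm17971 and WT for Adh6-ps1 and Gm7232. At the threshold, Phc1, Guk1 and Arpc4 were just inside (adjusted p = 0.0484, 0.0484 and 0.0485 in limma) and Mgea5, Usp47 and F2rl1 just outside (0.0502, 0.0505 and 0.0506).

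The genes Myo5a, Osbpl8, Tmem189 and Mrps27 were called in all 15 fits that left out a library. The other members were called in fewer, from 14 of 15 for Ciart and Prok1 down to 3 of 15 for Phc1. Among those called in only 4 of 15 were S100a9, Pycard, Ifi27, Ldha, Etfdh, Cyren, Mgst1 and Spns2. Myo5a encodes myosin Va, the motor that carries vesicles and melanosomes along actin. Its normalised counts were 1047, 775, 912 and 739 in WT vehicle, 905, 966 and 951 in WT folic acid, then 442, 348, 497 and 471 in G3 vehicle and 334, 389, 414 and 352 in G3 folic acid. Every G3 library was below every WT library in both treatments. Myo5a was 2.21-fold lower in G3 (log2 -1.15, SE 0.11, limma adjusted p = 5.92e-05), with log2 -0.98 (SE 0.13) after vehicle and -1.34 (SE 0.14) after folic acid. It lies at chromosome 9, 75071015 to 75223688, plus strand (GRCm38).

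Osbpl8 encodes a protein that exchanges lipids between the endoplasmic reticulum and the plasma membrane (chromosome 10, 111164752 to 111297249, plus strand). Its counts were 751, 685, 728 and 822 in WT vehicle, 634, 665 and 654 in WT folic acid, then 506, 488, 451 and 461 in G3 vehicle and 440.3, 371, 493 and 386 in G3 folic acid. The lowest WT library, 634 counts, stood above the highest G3 library, 506. Osbpl8 was 1.56-fold lower in G3 (log2 -0.64, SE 0.077, limma adjusted p = 0.00148), by nearly the same amount in both treatments, log2 -0.65 (SE 0.11) after vehicle and -0.63 (SE 0.11) after folic acid.

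Tmem189, the desaturase that completes plasmalogen lipids (chromosome 2, 167642608 to 167689822, minus strand), had 1122, 1122, 925 and 1058 counts in WT vehicle and 1016, 781 and 859.8 in WT folic acid. In G3 it had 611, 712, 571 and 629 after vehicle and 510.2, 498, 699 and 502 after folic acid, again without overlap. The gene was 1.64-fold lower in G3 (log2 -0.72, SE 0.094, limma adjusted p = 0.00319). Mrps27, a protein of the small subunit of the mitochondrial ribosome (chromosome 13, 99344786 to 99415562, plus strand), had the largest fall of the 4: 2.43-fold lower in G3 (log2 -1.28, SE 0.17, limma adjusted p = 0.00378). Its counts were 92.7, 127, 85.4 and 77.9 in WT vehicle, 121, 117 and 116 in WT folic acid, then 50.8, 48.8, 20.6 and 38.1 in G3 vehicle and 41.8, 43.2, 59.9 and 53.7 in G3 folic acid. G3 vehicle 3, at 20.6, was the lowest library, and G3 folic acid 3, at 59.9, the highest of G3, below the lowest WT library at 77.9.

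**Figure D2:**
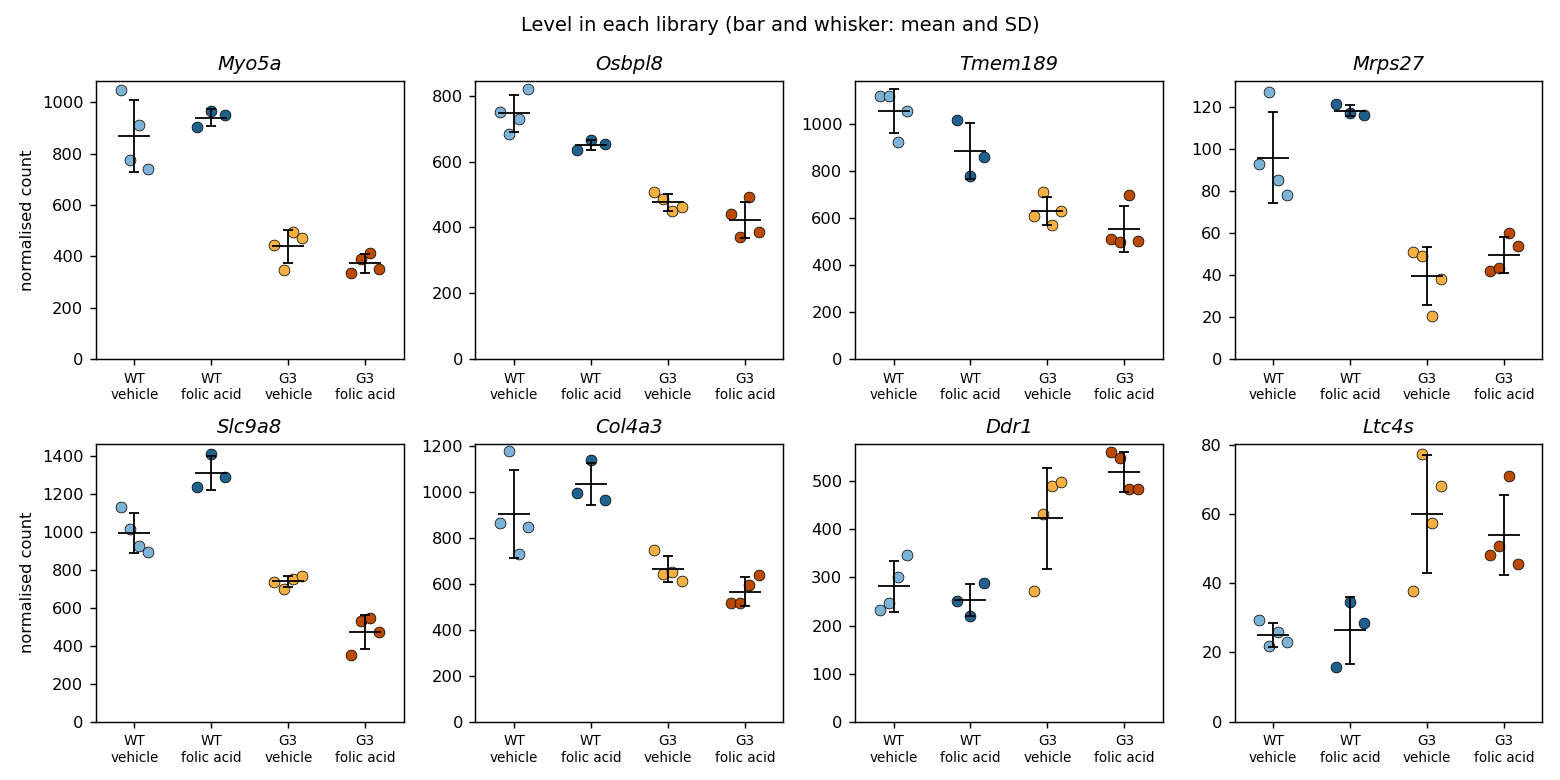
Normalised counts of 8 of the genes in each library (points), with the mean and SD of each group (bar and whisker), in WT and G3 after vehicle and folic acid. Myo5a, Osbpl8, Tmem189, Mrps27 and Slc9a8 do not overlap between genotypes, while for Col4a3 and Ddr1 1 G3 vehicle library lies within the WT range.

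Organic ion and proton carriers of the tubule were among the genes that fell. Slc9a8, a sodium-proton exchanger (chromosome 2, 167421712 to 167477000, plus strand), had 1134, 1019, 929 and 896 counts in WT vehicle and 1239, 1413 and 1289.7 in WT folic acid. In G3 it had 738, 700.5, 752 and 771 after vehicle and 350.4, 529, 549 and 471 after folic acid. The libraries did not overlap in either treatment, and the gap was wider after folic acid. Slc9a8 was 1.88-fold lower in G3 (log2 -0.91, SE 0.16, limma adjusted p = 0.0197), with log2 -0.42 (SE 0.13) after vehicle and -1.48 (SE 0.14) after folic acid. It was the 1 of the 58 genes whose 2 differences themselves differed (interaction log2 -1.06, limma adjusted p = 0.00608).

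Slc22a7, the organic anion transporter Oat2 of tubule and liver cells, was 1.86-fold lower in G3 (log2 -0.89, SE 0.15, limma adjusted p = 0.0197). It ranged over 459 to 769 (median 602) in WT and 208 to 452 (median 334) in G3, without overlap. Slc22a26, a related organic anion transporter, ranged over 56.9 to 192 (median 89.3) in WT and 25.4 to 58.4 (median 39.9) in G3, so that the genotypes touched, and was 2.27-fold lower in G3 (log2 -1.18, SE 0.20, limma adjusted p = 0.0197). WT folic acid 1 held its highest value, 192 counts. Of 25 tested genes of the proximal tubule list 0 were called by limma, 4 had an additive unadjusted p under 0.05, and 2 were called by DESeq2 and 0 by edgeR.

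Ltc4s and Mgst1, enzymes of the same family, were higher in G3. Ltc4s, leukotriene C4 synthase, joins glutathione to a leukotriene, and Mgst1 is a glutathione transferase, both of them membrane proteins. Counts of Ltc4s were 29.4, 21.8, 25.9 and 22.98 in WT vehicle, 15.9, 34.6 and 28.6 in WT folic acid, then 37.6, 77.2, 57.3 and 68.2 in G3 vehicle and 48.1, 50.7, 70.9 and 45.6 in G3 folic acid. The lowest G3 library, 37.6, was above the highest WT library, 34.6, so the genotypes were separate by a small margin. Ltc4s was 2.18-fold higher in G3 (log2 1.13, SE 0.19, limma adjusted p = 0.0197), with log2 1.19 (SE 0.26) after vehicle and 1.05 (SE 0.28) after folic acid. Mgst1 was 2.07-fold higher in G3 (log2 1.05, SE 0.22, limma adjusted p = 0.0483), ranging over 18.01 to 52.2 (median 36.2) in WT and 48.95 to 107 (median 72.4) in G3, with overlap after folic acid. Ces1d, a carboxylesterase that splits triglycerides and drugs, was 1.97-fold higher in G3 (log2 0.97, SE 0.20, limma adjusted p = 0.0469), from 58.99 to 136 in WT and 95.7 to 243 in G3. Spns2, which exports sphingosine-1-phosphate from cells, was 2.09-fold higher in G3 (log2 1.06, SE 0.22, limma adjusted p = 0.0483), from 17.1 to 47.03 in WT and 44.7 to 104 in G3. Ggct, another enzyme of glutathione, was lower (log2 -0.68, limma adjusted p = 0.0459). Of 17 tested genes of the NRF2 and glutathione list limma called 0, with 6 (35.3 percent, 18.6 percent over all genes) at an unadjusted p under 0.05, 3 called by DESeq2 and 0 by edgeR.

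Of the genes with roles in mitochondria or intermediary metabolism, Etfdh, Mterf3, Dnajc15, Ldha, Aldh8a1, Ggct and Guk1 were lower. Ifi27, Mgst1 and Ces1d, given elsewhere in the text with mitochondrial, glutathione and lipid roles, were higher (log2 0.79, 1.05 and 0.97). These genes were grouped by role after the calls were known, and 40 of all 58 members were lower. Etfdh passes electrons from fatty acid oxidation to ubiquinone and had 287, 378, 262 and 306 counts in WT vehicle, 309, 364 and 345 in WT folic acid, then 260.3, 228, 230.4 and 228 in G3 vehicle and 203, 166, 224 and 226 in G3 folic acid. The highest G3 library, G3 vehicle 1 at 260.3, lay just under the lowest WT library, WT vehicle 3 at 262. Etfdh was 1.45-fold lower in G3 (log2 -0.54, SE 0.10, limma adjusted p = 0.0426). Mterf3, which represses transcription of mitochondrial DNA, fell by 0.60 on the log2 scale (limma adjusted p = 0.0483), and Dnajc15, a cochaperone of the inner mitochondrial membrane, by 0.53 (adjusted p = 0.0483). Ldha, the lactate dehydrogenase subunit of glycolytic tissue, was 1.46-fold lower in G3 (log2 -0.55, SE 0.11, limma adjusted p = 0.0447). Aldh8a1, an aldehyde dehydrogenase of tryptophan breakdown, was 1.73-fold lower in G3 (log2 -0.79, SE 0.14, limma adjusted p = 0.0197), from 1024 to 2264 in WT and 671 to 1276 in G3. Ggct, which splits gamma-glutamyl peptides in glutathione turnover, and Guk1, guanylate kinase, were log2 -0.68 and -0.35, the latter the smallest difference of the 58.

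The lists for these pathways held few calls. Of 25 tested genes of fatty acid oxidation 1, Etfdh, was called, 11 had the same sign in both treatments, and the median log2 difference was 0.00082, against 0.0048 over all genes. Ehhadh, a peroxisomal enzyme of that list, had p under 0.05 in each treatment (log2 -0.49 after vehicle and -0.76 after folic acid, additive adjusted p = 0.0568). Among 28 genes of oxidative phosphorylation limma called 0, with 8 (28.6 percent) at an unadjusted p under 0.05, 2 called by DESeq2 and 0 by edgeR. Cox5a, a subunit of cytochrome c oxidase (log2 0.62), and Ndufv1, a subunit of complex I (log2 -0.48), had p under 0.05 in each treatment, in opposite directions. In a list of 20 genes of PGC-1 and mitochondrial biogenesis limma called 0 (2 at an unadjusted p under 0.05, 0 by edgeR and DESeq2). Ppargc1a, a coactivator that drives mitochondrial gene expression, was log2 -0.12 (adjusted p = 0.568) and Ppargc1b, its relative, 0.04 (0.831). By treatment Ppargc1a was log2 0.17 after vehicle and -0.46 after folic acid (limma adjusted p = 0.421 and 0.0407), opposite signs that partly cancel in the additive value.

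Several lower genes encode parts of the actin and vesicle machinery, grouped by role after the calls were known and with no list of such genes counted. Besides Myo5a these were Vamp8, a SNARE of late endosomes and secretory granules (log2 -0.51, adjusted p = 0.0197), Cobl, an actin nucleator (log2 -0.42, adjusted p = 0.0459), and Arpc4, a subunit of the Arp2/3 complex (log2 -0.44, adjusted p = 0.0485). Arhgap26 was also lower (log2 -0.50, adjusted p = 0.0483). Vamp8 ranged over 804 to 1002 (median 916) in WT and 506 to 732 (median 654) in G3, without overlap. Tm9sf4, a membrane protein of the endosomal pathway, was log2 -0.48. Against them, Lasp1, a protein that binds actin at focal contacts, was 1.65-fold higher in G3 (log2 0.73, SE 0.13, limma adjusted p = 0.0226) and ranged over 199.7 to 389.5 (median 326) in WT and 428 to 634 (median 509) in G3, also without overlap. Eml2, which binds microtubules, was log2 0.58 (limma adjusted p = 0.0483). Col4a3bp, despite its name the transporter of ceramide to the Golgi, was log2 -0.45, adjusted p = 0.0459, with the same difference of log2 -0.45 in each treatment. Arpc4 shares its strand and part of its span with Ttll3, so their reads may not be fully parted.

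The chaperone genes Hsp90b1 and Stip1 were lower, and the promoter of Hsp90b1 is shown for the stress elements it is known for. Hsp90b1 encodes Grp94, the Hsp90 chaperone of the endoplasmic reticulum (chromosome 10, 86690209 to 86705509, minus strand). RefSeq (GRCm38.p6) gives this promoter, 250 bases before to 50 after the start, at chr10:86705395-86705694 on the minus strand, with the 2 matches to the endoplasmic reticulum stress element, CCAAT and CCACG with 9 bases of any kind between, in capitals.
Hsp90b1: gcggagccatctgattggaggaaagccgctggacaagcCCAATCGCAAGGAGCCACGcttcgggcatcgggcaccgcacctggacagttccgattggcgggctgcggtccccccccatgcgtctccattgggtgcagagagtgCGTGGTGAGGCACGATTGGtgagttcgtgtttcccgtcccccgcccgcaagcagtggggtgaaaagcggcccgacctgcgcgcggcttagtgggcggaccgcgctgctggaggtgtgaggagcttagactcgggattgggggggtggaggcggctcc
The element was searched on both strands, the matches do not overlap, and 0.119 percent of 32851 promoters of this length hold it. Its RNA was 2615, 2924, 2392 and 2597 in WT vehicle, 2824, 3016 and 3035 in WT folic acid, then 2458, 2231, 1626 and 1639.7 in G3 vehicle and 1722, 1782, 1886 and 2181 in G3 folic acid. G3 vehicle 1, at 2458, lay above WT vehicle 3, at 2392, and the other G3 libraries lay below all of WT. Hsp90b1 was 1.44-fold lower in G3 (log2 -0.53, SE 0.10, limma adjusted p = 0.0426).

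Stip1, the cochaperone that links Hsp70 to Hsp90, was 1.39-fold lower in G3 (log2 -0.47, SE 0.094, limma adjusted p = 0.0447), from 398 to 505 in WT and 278 to 412 in G3. Adrm1, a ubiquitin receptor of the proteasome, was 1.57-fold lower in G3 (log2 -0.65, SE 0.11, limma adjusted p = 0.0197), from 275 to 485 in WT and 208 to 317 in G3. Klhl21, an adaptor that brings substrates to a cullin ubiquitin ligase, went the other way at 1.74-fold higher (limma adjusted p = 0.0447). In a list of 15 heat shock genes limma called 0, with 5 (33.3 percent) at an unadjusted p under 0.05, 2 called by DESeq2 and 0 by edgeR, and a median log2 difference of -0.18. Hspa5, another chaperone of the endoplasmic reticulum, was log2 -0.34 after vehicle and -0.21 after folic acid (additive adjusted p = 0.103).

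The collagen gene Col4a3 was lower, while of 2 receptor tyrosine kinases Ddr1 was higher and Met lower. Col4a3, a chain of the collagen IV network of the glomerular basement membrane (chromosome 1, 82586921 to 82722059, plus strand), had 864, 1177, 731 and 848 counts in WT vehicle and 998, 1138 and 966 in WT folic acid. In G3 it had 746, 645, 652 and 614 after vehicle and 516, 517, 597 and 639 after folic acid. G3 vehicle 1, at 746, overlapped WT vehicle 3, at 731. Col4a3 was 1.55-fold lower in G3 (log2 -0.63, SE 0.11, limma adjusted p = 0.0197). Ddr1, which binds collagen, was 1.72-fold higher in G3 (log2 0.78, SE 0.14, limma adjusted p = 0.0225), from 219.8 to 348 (median 252) in WT and 273 to 561 (median 487) in G3, with G3 vehicle 1 (273) inside the WT range. Met, the receptor of hepatocyte growth factor on tubule cells, was 1.42-fold lower in G3 (log2 -0.51, SE 0.085, limma adjusted p = 0.0197), with log2 -0.68 (SE 0.10) after vehicle and -0.31 (SE 0.11) after folic acid and no overlap.

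Lists of fibrosis and transition genes gave no call. Of 36 matrix genes limma called 0, with 2 at an unadjusted p under 0.05 and 0 called by edgeR or DESeq2, and a median log2 difference of 0.19. Col1a1, the main fibrillar collagen, was log2 0.62 (SE 0.41, limma adjusted p = 0.437) with log2 0.17 (SE 0.54) after vehicle and 1.16 (SE 0.59) after folic acid, and it was 1769 in WT folic acid 1 against 178 and 214 in WT folic acid 2 and 3. Of 24 genes of epithelial to mesenchymal transition limma called 0, with 3 at an unadjusted p under 0.05 and 0 by edgeR or DESeq2. Zeb1 and Zeb2, transcription factors of that programme, were log2 -0.15 and 0.01 (limma adjusted p = 0.647 and 0.981), the filament protein Vim 0.14 (0.741), the epithelial cadherin Cdh1 0.14 (0.507) and fibronectin, Fn1, 0.20 (0.824). The sign of Zeb2 and of Fn1 turned in edgeR, and that of Zeb2 in DESeq2 and with the Y share. Snai1 had too few counts to be tested.

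Tubular injury markers gave no genotype call. Havcr1 (Kim-1), made by injured proximal tubule, had 2.26, 0, 1.92 and 4.995 in WT vehicle, 44.2, 4.80 and 0.953 in WT folic acid, then 0, 0, 3.25 and 9.02 in G3 vehicle and 80.8, 58.2, 21.98 and 53.7 in G3 folic acid. Its additive genotype difference was log2 1.16 (SE 0.73, limma adjusted p = 0.408), with log2 -0.11 (SE 0.89) after vehicle and 2.63 (SE 0.97) after folic acid. Lcn2, released by injured distal tubule, had 185, 147, 33.97 and 226 for G3 folic acid and 358, 11.5 and 12.4 for WT folic acid, with log2 1.05 (limma adjusted p = 0.434). Of 20 genes of the injury list limma called 0 (7, or 35 percent, at an unadjusted p under 0.05, 2 by DESeq2, 0 by edgeR). Cxcl10, an interferon-induced chemokine, and Sox9, a factor of regenerating tubule, had p under 0.05 in each treatment, at log2 0.74 after vehicle and 0.91 after folic acid and 0.75 after vehicle and 0.79 after folic acid, with additive adjusted p of 0.104 and 0.119 in limma.

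Nuclear regulators moved in both directions. Hist1h4i, a histone H4 gene whose near-identical copies may exchange reads with it, was 1.90-fold lower in G3 (log2 -0.93, SE 0.15, limma adjusted p = 0.0197), from 44.8 to 69.1 (median 57.7) in WT and 20.3 to 41.8 (median 30.6) in G3, without overlap. Phc1, a polycomb subunit (log2 -0.57, adjusted p = 0.0484), Pknox1, a homeodomain cofactor (log2 -0.68, adjusted p = 0.0197), and Fam208b, a relative of the silencing factor Tasor (log2 -0.50, adjusted p = 0.0197), were lower. Kdm4a, a histone demethylase, was 1.49-fold higher in G3 (log2 0.58, SE 0.12, limma adjusted p = 0.0464), from 103 to 154 in WT and 137 to 239 in G3. Also higher were the zinc finger factor Klf13 (log2 0.43, adjusted p = 0.0483), the coregulator Sertad2 (log2 0.40, adjusted p = 0.0480) and Nup93, a scaffold of the nuclear pore (log2 0.70, adjusted p = 0.0426). Sertad2 had the smallest difference of the higher genes, 1.32-fold, and still did not overlap, at 159.8 to 194 in WT and 209 to 259 in G3.

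Genes of telomerase, shelterin and p53 gave no call, and 2 of the 58 genes have roles near that field. Trir is named as an RNase that interacts with the telomerase RNA and was 1.39-fold lower in G3 (log2 -0.48, SE 0.092, limma adjusted p = 0.0380), from 912 to 1191 (median 1028) in WT and 574 to 866 (median 776) in G3, without overlap. Cyren, a regulator of DNA end joining, was log2 -0.50, adjusted p = 0.0459 in limma and ranged over 71.1 to 91.5 in WT and 49.8 to 68.9 in G3. Of 21 telomerase and shelterin genes limma called 0 (3 at an unadjusted p under 0.05, 0 by edgeR and DESeq2), with a median of log2 -0.01. Gar1, a protein of telomerase and of small nucleolar particles, passed when the Y share was a term (limma adjusted p = 0.0330) and without it had log2 0.51 after vehicle and 1.23 after folic acid (adjusted p = 0.106). Tert itself had 22.6, 7.58, 15.4 and 2.997 in WT vehicle, 13.6, 6.72 and 6.67 in WT folic acid, then 6.10, 2.93, 15.1 and 9.02 in G3 vehicle and 6.35, 4.70, 2.997 and 10.7 in G3 folic acid, log2 -0.45 (SE 0.40, limma adjusted p = 0.579). Reads from its 3' end do not check a deletion elsewhere in the gene, and its sign turned with the title series in the fit. Terc, the RNA template, had too few counts to be tested.

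The DNA damage list (0 of 18 called by limma, 3 at an unadjusted p under 0.05), p53 targets (0 of 22 and 2), senescence and secreted factors (0 of 17 and 2) and proliferation genes (0 of 17 and 1) were likewise without a call, also in edgeR and DESeq2. Cdkn1a (p21), the cell cycle inhibitor that p53 induces, was log2 -0.22 (SE 0.22, limma adjusted p = 0.609). Its counts were 411, 370.3, 129.8 and 142 in G3 vehicle, around WT vehicle at 234, 198, 274 and 269.7. Trp53, which encodes p53, was log2 0.10 (limma adjusted p = 0.787).

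Ciart showed the largest difference of the 58 genes, and it was tested only because its G3 libraries reached the minimum count, which 0 WT libraries did. It encodes a repressor of the circadian clock whose RNA swings over the day, and its promoter is shown because clock factors are known to bind E-boxes. RefSeq (GRCm38.p6) gives it at chr3:95882179-95882478 on the minus strand, and the 3 CACGTG E-boxes are in capitals.
Ciart: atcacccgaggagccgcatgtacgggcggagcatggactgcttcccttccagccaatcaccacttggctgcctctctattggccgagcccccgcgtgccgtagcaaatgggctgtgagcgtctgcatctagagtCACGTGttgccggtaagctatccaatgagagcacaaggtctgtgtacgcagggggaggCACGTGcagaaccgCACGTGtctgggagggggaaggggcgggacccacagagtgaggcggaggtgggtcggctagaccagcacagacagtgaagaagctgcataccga
The motif reads the same on both strands, the matches do not overlap, and 7.15 percent of 32851 promoters hold at least 1. Ciart counts were 1.13, 0.948, 1.92 and 1.998 in WT vehicle, 5.67, 0 and 2.86 in WT folic acid, then 7.12, 5.86, 18.4 and 17.04 in G3 vehicle and 13.6, 18.8, 20.98 and 25.05 in G3 folic acid. Every G3 library stood above every WT library, though G3 vehicle 2, at 5.86, was close to WT folic acid 1, at 5.67. The levels are low, 14 reads over the 7 WT libraries and 131 over the 8 G3 libraries, for a ratio of 7.92 per depth (95 percent interval 4.56 to 14.9, counting error only). On the log2 scale Ciart was 5.66-fold higher in G3 (log2 2.50, SE 0.39, limma adjusted p = 0.0179), with log2 2.27 (SE 0.54) after vehicle and 2.77 (SE 0.58) after folic acid.

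Other clock genes with a daily swing leaned in both directions. Of 18 tested genes of the clock list, Ciart among them, 14 had the same sign in both treatments (53.9 percent of all tested genes). The 1 gene called by limma and by edgeR was Ciart itself, and DESeq2 called 2. An additive unadjusted p under 0.05 was found for 8, Ciart included (44.4 percent, 18.6 percent over all genes). Per2, a core repressor of the clock, had 22.6, 27.5, 45.1 and 49.95 in WT vehicle, 65.8, 29.8 and 22.9 in WT folic acid, then 38.6, 62.5, 133 and 147 in G3 vehicle and 64.5, 81.7, 101 and 70.7 in G3 folic acid. G3 vehicle 1 and 2 and G3 folic acid 1 lay inside the WT range, and its difference was log2 1.25 after vehicle and 1.12 after folic acid (additive limma adjusted p = 0.0614, with the Y share 0.0330). Dbp, a clock output factor, was 23.4, 42.01, 369 and 389 in G3 vehicle and 39.6, 36.02, 64.3 and 52.9 in WT vehicle, so G3 vehicle 3 and 4 were high and the other two were not. After folic acid Dbp was 188, 317, 322 and 242 in G3 against 146, 42.2 and 37.2 in WT, without overlap, and its additive difference was log2 1.61 (limma adjusted p = 0.119). Nfil3, which opposes Dbp at its sites, had 32.9, 61.4 and 44.8 in WT folic acid and 18.2, 19.7, 8.99 and 11.6 in G3 folic acid, log2 -0.31 after vehicle and -1.62 after folic acid. Arntl, the activator of the clock, was log2 -1.44 (limma adjusted p = 0.216). The hour of death is not given, and its part in these levels was not tested.

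Inflammatory and blood cell genes gave 3 members. S100a9, 1 part of the calprotectin pair of neutrophils, had 74.6, 79.6, 79.6 and 91.9 counts in WT vehicle, 23.8, 70.1 and 67.7 in WT folic acid, then 49.8, 50.8, 41.1 and 40.1 in G3 vehicle and 31.8, 15.03, 15.98 and 14.3 in G3 folic acid. WT folic acid 1, at 23.8, fell within the G3 range. S100a9 was 2.11-fold lower in G3 (log2 -1.08, SE 0.23, limma adjusted p = 0.0483). Its partner S100a8 was log2 -0.86 after vehicle and -0.96 after folic acid (additive limma adjusted p = 0.105) and the neutrophil gene Retnlg -0.59 after vehicle and -1.65 after folic acid, while Cxcr2 and Csf3r, receptors of the same cells, were 0.53 and 0.21 in the additive fit. The summed level of the 5 neutrophil genes ranged from 79.4 to 246 in WT and from 55.4 to 180 in G3.

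Ifi27, an interferon-induced protein of mitochondria, was 1.73-fold higher in G3 (log2 0.79, SE 0.16, limma adjusted p = 0.0447), from 79.6 to 174 (median 105) in WT and 144 to 258 (median 182) in G3, with overlap after folic acid. In its list of 23 interferon genes limma called 1, with 4 (17.4 percent, 18.6 percent over all genes) at an unadjusted p under 0.05. The sign was the same in both treatments for 12 of the 23 (53.9 percent of all tested genes). Irf1, a transcription factor of the pathway, had p under 0.05 in each treatment (log2 0.52 after vehicle and 0.74 after folic acid, additive limma adjusted p = 0.0614). Pycard (Asc), the adaptor of inflammasomes, was 1.51-fold higher in G3 (log2 0.60, SE 0.12, limma adjusted p = 0.0459) and ranged over 34.1 to 50.5 (median 39.96) in WT and 51.9 to 89.9 (median 62.3) in G3, without overlap. Of 21 tested genes of antigen presentation limma called 0, with 8 (38.1 percent, 18.6 percent over all genes) at an unadjusted p under 0.05, 4 called by DESeq2 and 0 by edgeR. Once the Y share was a term, 3 of the 21 passed (4.28 percent of all tested genes). These were the class I genes H2-K1, H2-Q4 and H2-Q7, all higher (limma adjusted p = 0.0466, 0.0467 and 0.0402), and without the Y share their adjusted p was 0.0755, 0.0643 and 0.0706. Of 21 macrophage genes limma called 0 (2 at an unadjusted p under 0.05, 1 by DESeq2, 0 by edgeR). Their median log2 difference was 0.17 after vehicle and 1.20 after folic acid, and 16 had the same sign in both treatments (53.9 percent of all tested genes). The summed level of the list overlapped after folic acid, at 1686 to 6097 in WT and 1980 to 5552 in G3.

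Fat cell RNA was uneven between libraries. Adipoq, the adipocyte hormone adiponectin, was 0 to 5.99 in WT, 297, 22.5, 32.5 and 4.01 in G3 vehicle and 4.54, 1.88, 42.96 and 2.68 in G3 folic acid. Cfd, adipsin, was 1518, 27.4, 247 and 21.05 in G3 vehicle and 38.1, 36.6, 294 and 79.6 in G3 folic acid against 31.7, 27.5, 17.3 and 76.9 in WT vehicle. Cd36, a fatty acid receptor also on that list, went the other way after vehicle, 563, 321, 417 and 379 in G3 against 1716, 902, 1592 and 1796 in WT (log2 -1.82 after vehicle and 0.09 after folic acid). All 8 tested adipose genes, the 7 higher and Cd36 lower, had an additive unadjusted p under 0.05 (18.6 percent over all genes), 0 were called by limma, 6 by DESeq2 and 0 by edgeR. The summed level of the adipose list ran from 1024 to 2499 in WT and from 1085 to 5473 in G3, where G3 vehicle 1 was the highest, and Cd36 made up much of it in the WT vehicle libraries. None of the 58 genes is on the adipose list, and the part of fat tissue in Ces1d or in other members was not tested.

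**Figure D3:**
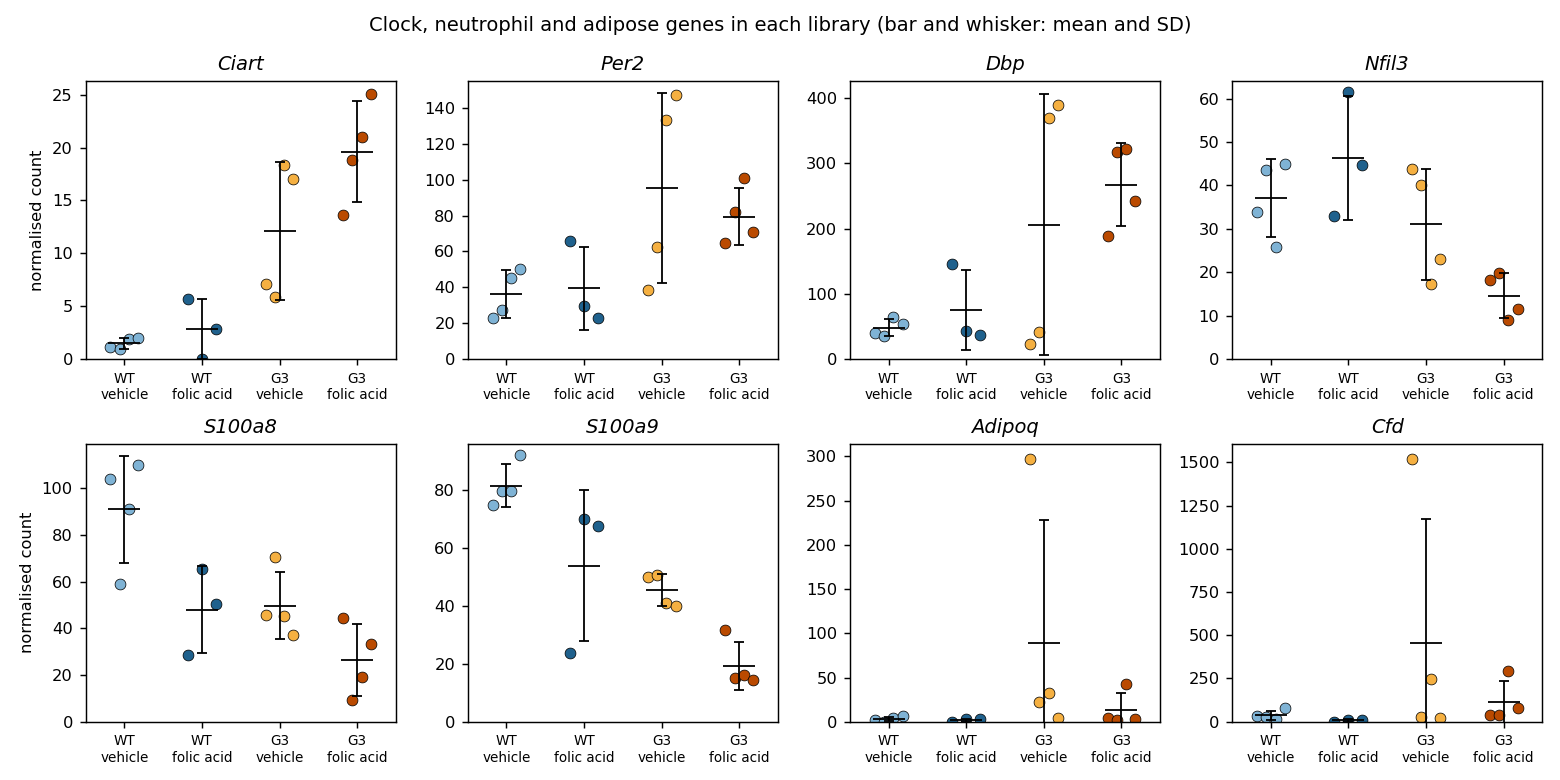
Normalised counts of 4 clock genes (Ciart, Per2, Dbp, Nfil3), 2 neutrophil genes (S100a8, S100a9) and 2 adipose genes (Adipoq, Cfd) in each library, with the mean and SD of each group. Ciart is higher in every G3 library, S100a9 is lower in G3 within vehicle and overlaps after folic acid through WT folic acid 1 at 23.8, and Adipoq is highest in G3 vehicle 1 at 297, with G3 vehicle 2 and 3 and G3 folic acid 3 between 22.5 and 42.96.

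Further members were spread over other roles. Prok1, prokineticin 1, a secreted ligand of G protein-coupled receptors, was 1.74-fold lower in G3 (log2 -0.80, SE 0.13, limma adjusted p = 0.0197), from 121 to 174 (median 134) in WT and 61.02 to 111 (median 77.98) in G3, without overlap. Neurl1b, a ubiquitin ligase of the Notch pathway, was 1.72-fold higher in G3 (log2 0.78, SE 0.16, limma adjusted p = 0.0464), from 235 to 455 in WT and 416 to 924 in G3. Morn2 was log2 -0.75, adjusted p = 0.0445 in limma. Of the predicted gene models, 5 of 7 were lower. Gm17971, a pseudogene of 43 reads in WT and 160 in G3, was 2.86-fold higher, and it lies inside Coq10b on the same strand, so its reads cannot be parted from that gene. Gm24715, listed as a miRNA locus but read here from polyadenylated RNA, was 2.94-fold lower, Gm2628 2.30-fold, Gm7232 2.20-fold, Gm853 1.90-fold and 1110019B22Rik 1.68-fold lower. Gm26737, antisense to Rnf26, was 1.82-fold higher. Adh6-ps1, an alcohol dehydrogenase pseudogene with 144 reads in WT and 47 in G3, was 3.35-fold lower (ratio 0.276 per depth, 95 percent interval 0.194 to 0.387, counting error only).

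**Figure D4:**
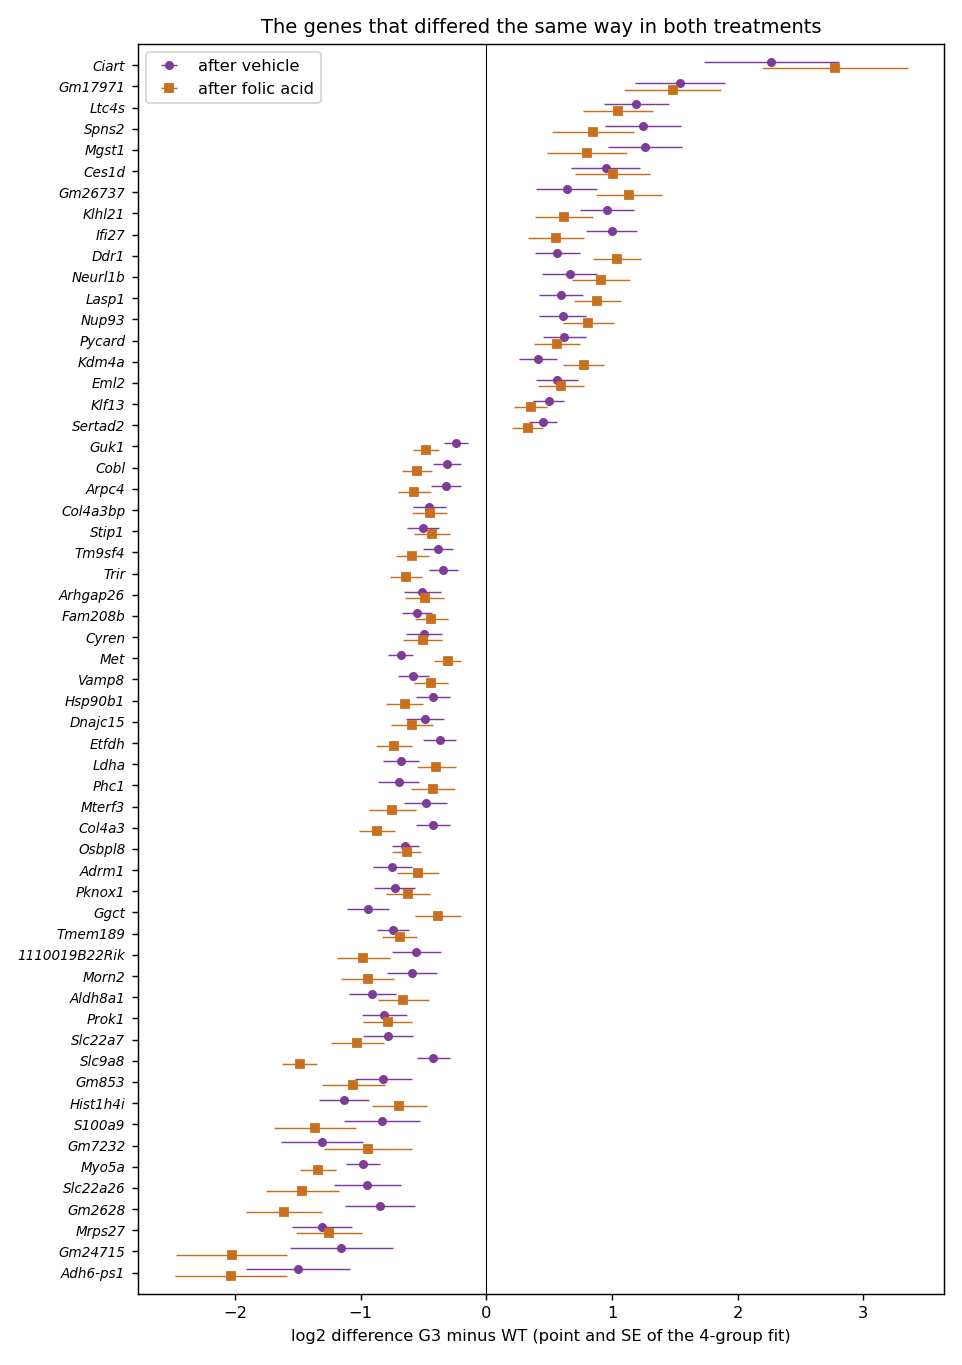
The log2 difference between G3 and WT of each of the 58 genes after vehicle (circles) and after folic acid (squares), with the SE of the fit with 4 groups, ordered by the additive difference. Ciart is the highest and Adh6-ps1 the lowest, and Slc9a8 has the widest gap between the treatments (-0.42 and -1.48).

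Against 0.396 percent of all tested genes, chromosome 6 held 7 of 792 (0.884 percent), chromosome 11 6 of 1128 (0.532 percent) and chromosome 13, which carries Tert, 5 of 569 (0.879 percent), all 5 lower: Fam208b, Hist1h4i, Mterf3, Col4a3bp and Mrps27. These lie 70.02, 51.6 and 6.69 Mb before Tert and 22.9 and 25.7 Mb after it. Chromosomes 3, 7, 10 and 17 also held 5 each (0.645, 0.449, 0.707 and 0.756 percent). All 5 members on chromosome 10 and all 4 on chromosome 2 were lower too, and 40 of the 58 were lower. Slc9a8 and Tmem189 on chromosome 2 are 0.166 Mb apart, the closest pair of members. Of the members with a position, 0 lay on chromosomes 5 (1012 tested), 15, 16, 18 and X. Arhgap26 was given no position.

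Around Tert itself the difference between the genotypes was not of 1 direction. Of 95 tested genes within 10 Mb, limma called 1, Mterf3, with 34 (35.8 percent, 18.6 percent over all genes) at an unadjusted p under 0.05, 7 called by DESeq2 and 0 by edgeR, and a median of log2 -0.04. Of the 6 tested neighbours, 3 on each side, Slc6a18, a renal amino acid transporter, was log2 0.30 after vehicle and -1.19 after folic acid (interaction adjusted p = 0.00224 in limma). The other 5, Slc6a19, Slc12a7, Clptm1l, Lpcat1 and Eprn, were log2 0.61, 0.36, 0.28, 0.26 and -0.04 in the additive fit, with adjusted p of 0.153 to 0.929.

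**Figure D5:**
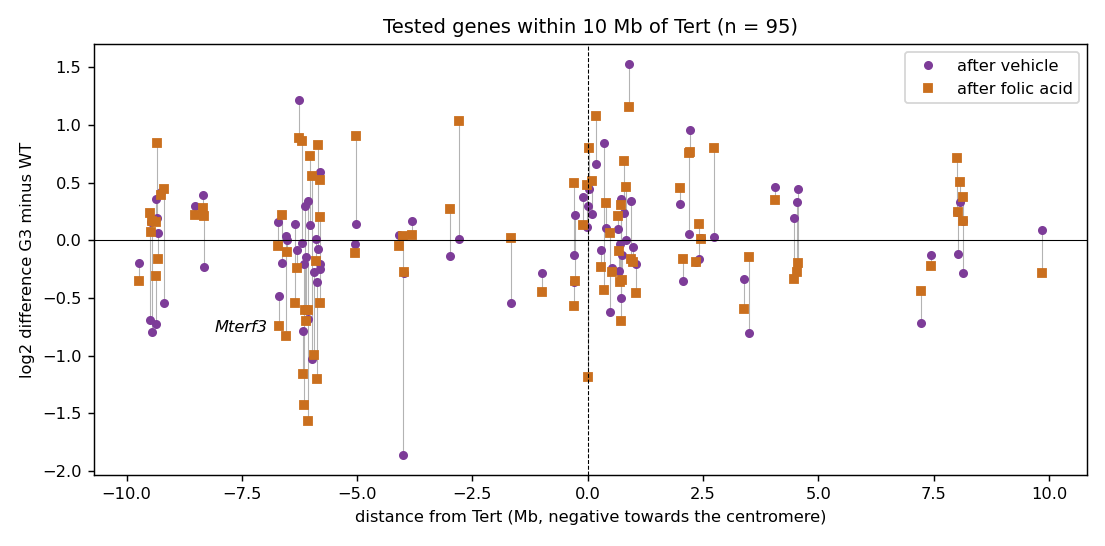
The 95 tested genes within 10 Mb of Tert, by distance from Tert in Mb (x axis) and log2 difference between G3 and WT (y axis) after vehicle (circles) and after folic acid (squares), with a line joining the 2 values of a gene. Values lie on both sides of 0 at all distances, and Mterf3, 6.69 Mb before Tert, is the called gene.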

How the data were processed

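RNA of 15 mouse kidneys was read from transcript 3' ends with QuantSeq 3' FWD from 300 ng (mean RNA quality 6.3, range 4.7 to 8.0), per the labels' protocols. The authors used FastQC 0.11.7, TopHat2 2.0.10, Bowtie 1.0.0, SAMtools 0.1.19, HTSeq 0.6.1 and DESeq2 with GRCm38, as the submitters' processing notes list. The deposited signal values are read counts divided by a size factor per library. All deposited values were whole multiples, within 0.001, of 1 step per library (0.895 to 1.13), and the reads recovered this way were used for edgeR 4.0.16 and DESeq2 1.42.0 as alternatives.

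In R 4.3.3, genes with at least 10 normalised counts in at least 3 libraries were fitted with limma 3.58.1 (empirical Bayes with a mean trend) on log2(normalised count + 1), with treatment and genotype as terms and Benjamini-Hochberg adjustment over all 14651 genes. A second fit with 4 groups gave the difference in each treatment and the interaction. Fold changes are on the log2(count + 1) scale and understate low genes. The 2 treatment differences use different libraries and share 1 variance estimate. Positions come from GENCODE M21, in which 19466 of 19602 symbols had 1 gene. Promoters come from RefSeq.

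The rule for named genes took the 10 largest differences each way with a mean of at least 20 counts, called list members, 3 neighbours of Tert on each side and a panel fixed by name. The remaining members are named so that all 58 are accounted for. Members and gene lists were chosen with earlier results of these data known. Alternatives covered sex, Y share, title series, filters, pseudocounts, scalings, weights, tools and leaving out each library. The Y share with edgeR, and the Y share without WT folic acid 1, were chosen after seeing the data. The limma fit was also run on simulated counts, drawn independently for each library. They held no differences by sex or title series, so that run does not test the fit against those.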

Additional observations from a re-analysis of the deposited data

Results flagged for a closer look

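In 123 groups of 4 libraries examined, 5 held a library far from the other 3, and chance gives about 1 in 20. Aldh8a1 was 1805 in WT vehicle 3, against 2187 to 2264 in the other WT vehicle libraries. Etfdh was 260.3 in G3 vehicle 1, against 228 to 230.4. S100a9 was 31.8 in G3 folic acid 1, against 14.3 to 16.0. Ppargc1a was 833 in G3 vehicle 2, against 754 to 766, and Fn1 was 79.6 in WT vehicle 2, against 36.2 to 40.96.

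The genotype difference itself differed between the treatments for 3 named genes in limma's interaction test. It was log2 -1.06 for Slc9a8 (adjusted p = 0.00608), -1.49 for Slc6a18 (adjusted p = 0.00224) and -0.63 for Ppargc1a (adjusted p = 0.0287), each as folic acid minus vehicle.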

How the results depend on the processing

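No paired analysis was possible because the replicate numbers follow the order of the samples and no label ties a library of 1 group to a library of another. The additive fit called 59 genes and 58 differed the same way in both treatments. Those 2 counts became 627 and 77 with the Y share, 0 and 0 with the title series, 8 and 8 without WT vehicle 2 and G3 folic acid 4, and 131 and 112 at a minimum of 50 counts. They became 1896 and 898 with library weights, 16 and 16 without the trend, and 604 and 282 in DESeq2. The alternatives chosen after seeing the data gave 623 and 91 (Y share in edgeR) and 1293 and 159 (Y share without WT folic acid 1). The count for the larger p was 1, and 0 with the Y share. Labelled sex, no filter, pseudocounts of 0.5 and 5, TMM, quantile scaling and edgeR gave 44 to 61 and 41 to 60. The cause of these moves was not tested.

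Leaving out 1 library gave 4 to 516 additive calls, 4 to 392 shared genes and 0 to 1 for the larger p. Shared genes numbered 4, 14, 122 and 31 without WT vehicle 1, 2, 3 and 4, and 312, 14 and 10 without WT folic acid 1, 2 and 3. They numbered 392, 38, 13 and 9 without G3 vehicle 1, 2, 3 and 4, and 15, 15, 177 and 33 without G3 folic acid 1, 2, 3 and 4. The higher genes made up 30.5 percent of the additive calls, and 47.3 percent with library weights. All 58 kept their direction in each of these settings, except that a minimum of 50 counts left 52 of them to test, which kept theirs. The 58 were chosen on these same libraries for that direction, so this was nearly given.

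Signs turned only for genes that had not passed. Zeb2 was log2 -0.0111 with the Y share, -0.00944 in edgeR and -0.0209 in DESeq2, Fn1 was -0.00897 in edgeR, and Eprn was 0.0504 with library weights. With the title series Clptm1l was -0.15, Tert 1.36, Zeb1 0.0210 and Trp53 -0.24. Leaving out 1 library gave -0.0851 to 0.135 for Zeb2 and -0.15 to 0.11 for Eprn. At 5014684 to 6609307 reads per library, genes such as Ciart and Tert rest on few reads.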
